A study of Homo sapiens with 16 samples.

Results

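The 2 SUV3-knockdown cultures of a leukaemia line were compared with each other day by day, to ask which immune genes separated them throughout and which ran in opposite directions. OCI-AML2, an established human acute myeloid leukaemia line, carried short hairpin RNA against SUV3 in cultures labelled 1595 and 1727, and each was sampled on days 3, 4, 5 and 6. These 8 samples, of 16 in the series, were taken by their labels and were paired by day. The comparison was chosen with earlier results of these data known. The other 8 samples were OCI-AML2 cells with short hairpin RNA against PNPase, in cultures 545 and 1717 on the same days, and served as the background for a like pair of cultures. The design text calls the 2 cultures of a knockdown biological replicates. What the numbers 1595 and 1727 stand for, the hairpin each culture carried, the day from which days were counted and any control cells are not given in the sources used here. All differences below are therefore between 2 knockdown cultures, never between knockdown and control. The 4 days of a culture are repeated samples of it, so p-values measure the spread over days in these cultures and not the spread between independent cultures.

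SUV3, encoded by SUPV3L1, is a helicase of the mitochondrial matrix that unwinds RNA, and PNPase is the exoribonuclease that works with it to degrade mitochondrial transcripts. Double-stranded mitochondrial RNA that reaches the cytosol is known to be sensed by MDA5 (IFIH1) and to induce interferon-stimulated genes. Cells of acute myeloid leukaemia are arrested on the path to monocytes and granulocytes, and S100A8, S100A9, CEBPB, CD14 and ITGAM are genes that normally mark or drive that path. Neither knockdown target was on the panel (0 of 2), so the depth of the knockdown in each culture could not be read from these data.

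Transcripts of 579 immune genes and 15 housekeeping genes were counted by barcoded probes on an nCounter panel. Totals per sample ran from 313016 to 436459 and were higher in culture 1727 than in culture 1595 on each day. Of the 594 genes, 360 had a mean over the 8 samples above 11.6, a limit set 2 SD over the average negative control probe. After scaling on the housekeeping genes, values were taken as log2(value + 1), a scale that understates differences of weak genes. The housekeeping factor was higher in 1727 by 0.12 ± 0.10 log2 (SD, 4 days; exact two-sided sign-flip p = 0.25), while the spiked positive controls were lower by 0.15 (-0.15 ± 0.07; exact p = 0.125, the smallest that 4 days allow). The part of either shift in the results was not tested beyond the alternative scalings given below. Of 12 measured myeloid markers 10 were above the negative controls, beside 360 of all 594 genes. KIT and CD34 were not. CD14, ITGAM and CSF1R, among the 10, were weak. They had 10 to 17, 10 to 22 and 6 to 21 in 1595 and 17 to 60, 18 to 37 and 6 to 14 in 1727. None of 5 T cell markers was above that limit. For other cell types 1 of 4 NK cell markers (KLRF1, 82 to 106 in 1595 and 40 to 70 in 1727), 3 of 5 B cell markers and 2 of 3 platelet markers (ITGA2B and GP1BB) were above it.

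To ask which genes separated the cultures, the offset of 1727 against 1595 was fitted with day as a block. Of the 594 genes, 31 passed limma at an adjusted p of 0.05 (5.22%), 19 higher in 1727 (3.2%) and 12 higher in 1595 (2.02%). Genes higher in 1727 included the alarmins S100A8 and S100A9, the transcription factor CEBPB, the lipid-presenting molecule CD1D and adhesion molecules. Those higher in 1595 included the Fc receptor FCGR1A/B, the chemokine receptor CCR2, the granule protease CTSG and the survival gene BCL2. Adjusted p-values ran only from 0.0322 to 0.0483. All 31 genes were above the negative controls (8.61% of 360, with 5.28% higher in 1727 and 3.33% higher in 1595) and had the same sign on all 4 days, which was also true of 32.8% of the 360 genes in the direction of 1727 and of 22.2% in the direction of 1595. The ranges of the cultures over 4 days did not overlap for 29 of the 31 genes, against 35% of the 360. CCR2 and CD83 overlapped. The 31 genes were chosen for a steady gap between the cultures in these same values. That choice favours a constant sign and ranges that lie apart, so these shares are no independent evidence of separation.

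The number that passed rested on all 4 days: without day 4 it was 3, and without day 3, 5 or 6 it was 0. Each of the 31 genes kept its sign, but this was fixed in advance, since each had the same sign on all 4 days. Without day as a block the number that passed was 79. With the negative controls subtracted 23 of the 31 passed again, and TGFBI, CEBPB, PECAM1, CD276, LILRA2, FCGR1A/B, GPR183 and ICAM2 did not (adjusted p from 0.0556 to 0.0692). With positive control scaling 27 did, without ICAM2, LAIR1, CCR2 and RUNX1. Scaling changed how the calls were split. Genes higher in 1727 were 61.3% of calls with housekeeping scaling, 63.2% with median scaling, 80% without scaling and 91.5% with positive control scaling. Over the 360 genes the median offset was 0.16 log2, 0.05, 0.28 and 0.42 in that order, so an offset is best read against 0.16.

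**Figure D1:**
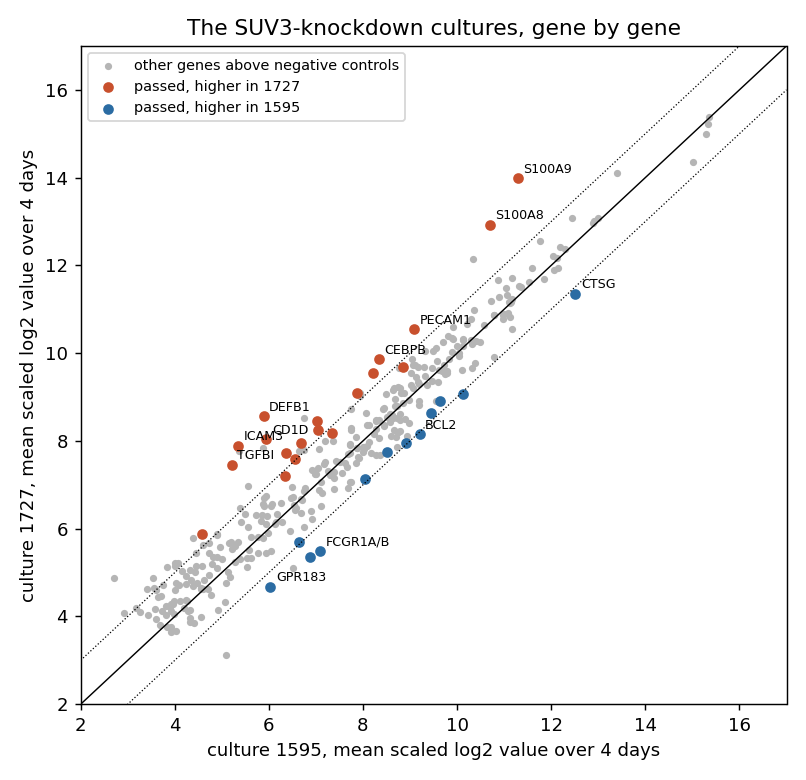
Mean scaled log2 value over 4 days of the 360 genes above the negative controls, culture 1595 on the x axis and culture 1727 on the y axis; the solid line marks equal values and dotted lines a 2-fold difference. Coloured points passed limma (19 higher in 1727, 12 higher in 1595), and S100A9 and S100A8 lie far above the line among strongly detected genes.

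S100A9 and S100A8, calcium-binding proteins that form calprotectin in monocytes and neutrophils, gave the widest separation among strongly detected genes. The 250 bases before the RefSeq start of S100A9 (GRCh38.p14, chr1:153357604-153357853, plus strand) are shown because this gene had the largest offset. Capitals mark TATAAA, searched on both strands and held by 11.8% of 22114 such promoters; of the 19 genes higher in 1727, 4 had a promoter in the table and 1 held this match.
S100A9: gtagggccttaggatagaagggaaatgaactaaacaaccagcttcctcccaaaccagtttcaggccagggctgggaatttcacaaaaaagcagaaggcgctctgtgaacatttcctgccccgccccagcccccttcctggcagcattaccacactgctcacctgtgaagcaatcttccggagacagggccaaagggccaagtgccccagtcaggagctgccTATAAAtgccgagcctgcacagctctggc

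Deposited values of S100A9 on days 3, 4, 5 and 6 were 1538, 1992, 2459 and 2930 in 1595, and 12429, 7241, 23198 and 25608 in 1727. Every sample of 1727 lay above every sample of 1595, with the smallest gap on day 4. The scaled offset was 2.69 ± 0.28 log2 (SE; 6.47-fold, limma adjusted p = 0.0322). S100A8 had deposited values of 1062, 1408, 1575 and 1765 in 1595 and 4710, 3979, 12026 and 12602 in 1727, again without overlap and again with the lowest 1727 value on day 4. Its offset was 2.24 ± 0.30 (4.71-fold, adjusted p = 0.0322). In such bulk RNA, more cells that carry a transcript and more transcript per cell cannot be told apart. For comparison, mean scaled log2 values of S100A9 were 11.29 in 1595 and 13.99 in 1727, and 13.38 and 11.62 in PNPase cultures 545 and 1717, so that each knockdown had a culture near the higher and a culture near the lower level.

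Other antimicrobial and myeloid genes separated in the same direction. DEFB1, which encodes the antimicrobial peptide beta-defensin 1, had deposited values of 45, 39, 51 and 72 in 1595 and 223, 165, 585 and 729 in 1727. The cultures did not overlap, and the offset was 2.67 ± 0.33 (6.39-fold, adjusted p = 0.0322). CEBPB, a transcription factor of monocyte and granulocyte maturation, ran from 206 to 318 in 1595 and from 575 to 1344 in 1727, with an offset of 1.52 ± 0.24 (adjusted p = 0.043). CD14, the lipopolysaccharide co-receptor of monocytes, stood at 10, 11, 17 and 15 in 1595, near the negative controls, and at 17, 27, 49 and 60 in 1727. The cultures met at 17 and were apart only after scaling, and the offset of 1.23 ± 0.25 did not pass (adjusted p = 0.0555). Among monocyte and macrophage markers, 16 of 20 were above the negative controls and 5 of them passed, against 8.61% of all 360 genes. S100A9, S100A8 and CEBPB were higher in 1727, and FCGR1A/B and CCR2 were higher in 1595. The markers were thus split, with a median offset of 0.50 against 0.16 for all genes. CSF3R, the receptor for granulocyte colony-stimulating factor, did not pass, with 678 to 809 in 1595 and 690 to 1007 in 1727 (offset 0.01 ± 0.18).

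Adhesion molecules and surface proteins made up most of the remaining genes higher in 1727. ICAM3, a leukocyte ligand of the integrin LFA-1, had deposited values of 21, 43, 39 and 40 in 1595 and 181, 116, 325 and 350 in 1727. The offset was 2.53 ± 0.34 (5.79-fold, adjusted p = 0.0322), without overlap. Its relative ICAM2 went the other way, with 71, 79, 101 and 93 in 1595 and 40, 62, 47 and 45 in 1727, and an offset of -0.94 ± 0.17 (adjusted p = 0.0483). Of 19 integrin and adhesion genes above the negative controls, 5 passed as higher in 1727 (ICAM3, PECAM1, CD9, CD97 and ITGB1) and only ICAM2 as higher in 1595. Over all 360 genes the shares were 5.28% and 3.33%. PECAM1, which holds leukocytes and endothelium together at cell contacts, ran from 431 to 508 in 1595 and from 959 to 2010 in 1727 (offset 1.46 ± 0.26). ITGB1, the beta chain of fibronectin and collagen receptors, had an offset of 0.84 ± 0.15. CD9, a tetraspanin, was weak, with 16 to 24 in 1595 and 41 to 69 in 1727 (offset 1.31 ± 0.20). PECAM1 and CD9 are also on the list of platelet and erythroid markers, of which 5 of 7 were above the negative controls and whose summed deposited values were 2169 to 3009 in 1595 and 2924 to 4613 in 1727; the part of those markers in the result was not tested.

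Genes of contact with T cells and NK cells followed. CD1D, which presents lipids to NKT cells, had deposited values of 48, 49, 53 and 61 in 1595 and 258, 137, 302 and 346 in 1727. Its offset was 2.10 ± 0.23 (4.28-fold, adjusted p = 0.0322), and the cultures did not overlap. CD70, the ligand of the co-stimulatory receptor CD27, ran from 77 to 155 in 1595 and from 243 to 415 in 1727 (offset 1.44 ± 0.20). CD276, a checkpoint ligand also called B7-H3, had an offset of 1.36 ± 0.22, and CD83, a maturation marker of antigen-presenting cells, one of 0.85 ± 0.15. LILRA2, an activating leukocyte immunoglobulin-like receptor, ran from 230 to 279 in 1595 and from 524 to 968 in 1727 (offset 1.35 ± 0.22). The inhibitory receptor LAIR1, which binds collagen, had 486 to 699 in 1595 and 293 to 414 in 1727, for an offset of -0.80 ± 0.13. Markers of T cells and NK cells themselves were above the negative controls for 5 of 46 genes, with summed deposited values of 1100 to 1333 in 1595 and 1436 to 1991 in 1727. CD3D, CD3E, CD8A and CD2 stayed at or below 7 in all 8 samples, and the part of the others in the result was not tested.

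Signalling and matrix genes completed the side of 1727. TGFBI, a matrix protein induced by TGF-beta, had deposited values of 36, 38, 24 and 29 in 1595 and 143, 95, 177 and 302 in 1727 (offset 2.24 ± 0.39, 4.74-fold, adjusted p = 0.0471), with no overlap. IL6ST, the signal-transducing chain gp130 of the IL-6 receptor family, had an offset of 1.29 ± 0.15 with 68 to 116 in 1595 and 163 to 310 in 1727. The transcription factor ETS1 followed with 1.21 ± 0.15, and NFKB2, which encodes the p100 precursor of the non-canonical NF-kappaB pathway, with 1.02 ± 0.14. PLAUR, the urokinase receptor, had 0.86 ± 0.13, and CD97, an adhesion G protein-coupled receptor, 1.20 ± 0.16.

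On the side of 1595 the largest offsets belonged to receptors. FCGR1A/B is a probe whose name covers FCGR1A, the high-affinity IgG receptor, and its near-identical copy FCGR1B, so the signals of both cannot be told apart. It had deposited values of 77, 122, 156 and 128 in 1595 and 17, 62, 45 and 62 in 1727. The ranges did not overlap and the offset was -1.59 ± 0.26 (3.01-fold higher in 1595, adjusted p = 0.043). CCR2, the receptor for CCL2 on monocytes, differed by less (-0.75 ± 0.12, adjusted p = 0.043): values of 129, 428, 410 and 421 in 1595 stood against 95, 270, 235 and 272 in 1727, and day 3 was the lowest in both cultures. GPR183, an oxysterol receptor that guides cell migration, ran from 38 to 68 in 1595 and from 19 to 30 in 1727 (offset -1.35 ± 0.24).

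The remaining genes higher in 1595 were of mixed function. CTSG, the cathepsin G of azurophilic granules made at the promyelocyte stage, had deposited values of 3515, 4669, 6258 and 6336 in 1595 and 1571, 2836, 2554 and 3144 in 1727. The offset was -1.16 ± 0.15 (2.24-fold, adjusted p = 0.0322), without overlap. BCL2, which protects cells from mitochondrial apoptosis, ran from 340 to 630 in 1595 and from 187 to 336 in 1727 (offset -1.05 ± 0.14). RUNX1, a transcription factor of blood formation, had an offset of -0.74 ± 0.13, while CEBPB and ETS1 on the same list of 15 genes above the negative controls had passed in the other direction. Likewise CTSG was the only gene of 5 on the list of oxidase and cathepsin genes with a negative offset. IKBKE, a kinase upstream of IRF3 and NF-kappaB, had an offset of -0.97 ± 0.14, and CD53, a leukocyte tetraspanin, one of -1.05 ± 0.14. FCER1A, the alpha chain of the IgE receptor, had 99, 24, 15 and 18 in 1595 and 11, 7, 7 and 5 in 1727, where no sample was above the negative controls; it did not pass (adjusted p = 0.0555).

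**Figure D2:**
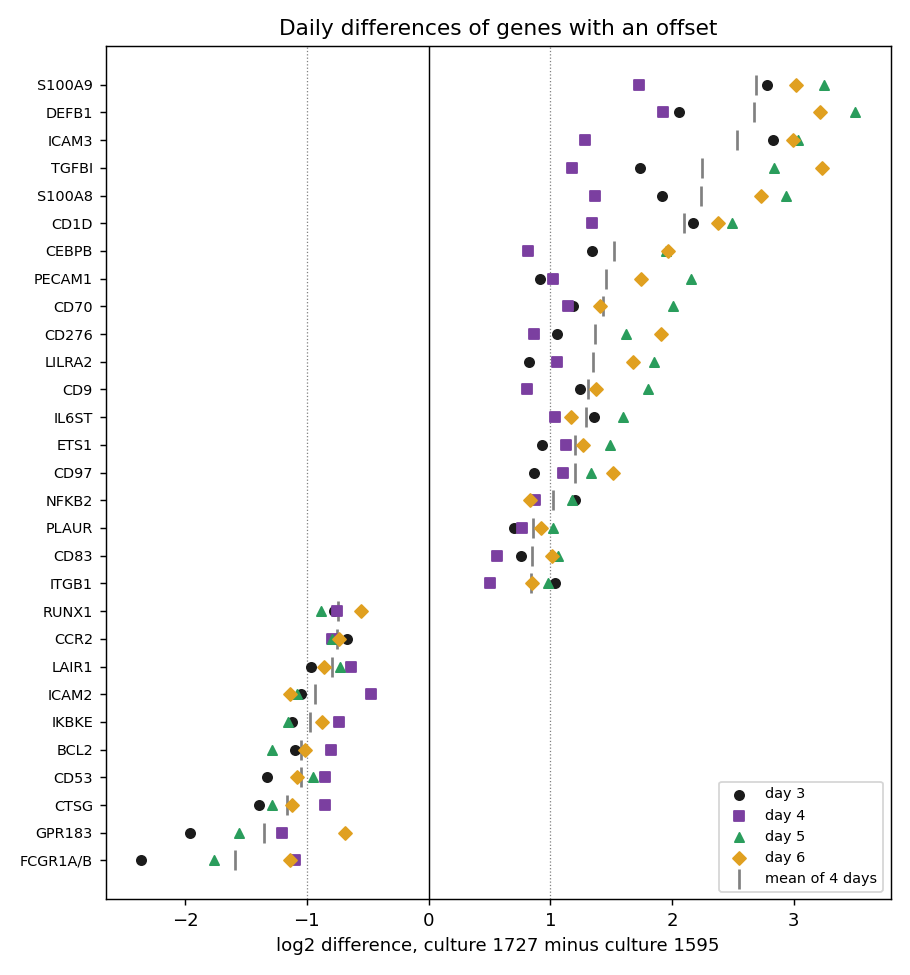
Scaled log2 difference of culture 1727 minus culture 1595 for 29 of the 31 genes that passed limma, with 1 symbol for each day and a vertical bar for the mean of 4 days; dotted lines mark a 2-fold difference. For 20 of the 29 genes drawn the smallest difference was on day 4 (squares), and no gene drawn crossed 0.

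The separation varied by day. Among the 31 genes the smallest difference fell on day 4 for 21 genes and the largest on day 5 for 17. The same held across the 360 genes, where 66, 26, 83 and 79 genes differed by at least 2-fold on days 3, 4, 5 and 6, and the SD of the differences was 0.80, 0.50, 0.84 and 0.85 log2. Day 3 had about as many such genes higher in 1595 (34) as in 1727 (32), whereas day 5 had 8 and 75. These daily numbers were taken with housekeeping scaling only. The housekeeping factor of 1727 minus 1595 was 0.235, 0.131, -0.006 and 0.109 log2 on days 3, 4, 5 and 6. Its part in the change between days was not tested. Over the 360 genes the differences on a pair of days correlated with Pearson's r of 0.60 to 0.88, as a description of points that share scaling, probes and cultures.

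A description by size gave a shorter list than the test. A difference of at least 2-fold with 1 sign on all 4 days was met by 8 genes higher in 1727 (2.22% of 360) and 2 higher in 1595 (0.556%). The 8 were S100A9, DEFB1, ICAM3, TGFBI, S100A8, CD1D, CD70 and IL6ST, and the 2 included FCGR1A/B. IL6ST, with a smallest daily difference of 1.04, and FCGR1A/B, with -1.10, lay just inside this limit. FCER1A (-0.996) and MX1 (0.96) lay just outside. The PNPase cultures 545 and 1717, compared in the same way, had 7 of 346 genes past the size limit on all days (2.02%, against 2.78% for SUV3). By limma none of 594 genes passed between them, with 173 at an unadjusted p under 0.05 and a smallest adjusted p of 0.0529, against 167 at an unadjusted p under 0.05 in the SUV3 pair. That 1 pair had calls and the other had none was not tested as a difference. Placed among all 4 cultures by mean, 1727 was outermost for 16 of the 19 genes higher in it, and among the 12 genes higher in 1595 it was 1595 for 7 and 1727, at the low end, for 10. These genes were chosen for the gap between the SUV3 cultures, which favours such positions.

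Interferon-stimulated genes, the group that sensing of mitochondrial RNA is known to induce, were mostly at higher values in 1727 but did not pass gene by gene. Of 21 on the list 15 were above the negative controls. None passed limma and 7 had an unadjusted p under 0.05, close to the share of all genes above the negative controls (139 of 360, 38.6%). Offsets were positive for 14 of the 15, against 223 of 360 genes, and positive on all 4 days for 6, against 118 of 360. Their median offset was 0.51 log2, against 0.16 for all genes, and between 0.41 and 0.77 under the other scalings, against 0.05 to 0.42. With median scaling 3 of the 15 passed, beside 57 of all 594 genes. Without scaling these numbers were 4 and 85, and with positive control scaling 6 and 117, so calls rose across the panel too. The 594 include genes below the limit of the negative controls. BST2, the tetherin that holds budding viruses at the cell surface, serves as an example, and the 250 bases before its RefSeq start (GRCh38.p14, chr19:17405631-17405880, minus strand) are shown with capitals over the overlapping matches to GAAA, any 2 bases and GAAA again, the core of the interferon-stimulated response element. Searched on both strands, this pattern was in 3.21% of 22114 promoters and in 5 of the 9 interferon-stimulated genes with a promoter in the table.
BST2: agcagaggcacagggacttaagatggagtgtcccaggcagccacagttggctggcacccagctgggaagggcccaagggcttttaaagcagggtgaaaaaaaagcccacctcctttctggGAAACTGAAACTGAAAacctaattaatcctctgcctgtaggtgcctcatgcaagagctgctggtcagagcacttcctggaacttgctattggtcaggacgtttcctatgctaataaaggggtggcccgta

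BST2 had deposited values of 251, 238, 195 and 171 in 1595 and 420, 448, 613 and 602 in 1727, with no overlap. Its offset was 1.16 ± 0.26 (adjusted p = 0.0609) and its gap widened from 0.51 log2 on day 3 to 1.70 on day 6. MX1, a GTPase that traps viral nucleocapsids, had 200, 112, 65 and 50 in 1595 and 460, 245, 477 and 260 in 1727 (offset 1.77 ± 0.38, adjusted p = 0.0563). After scaling, the lowest 1727 value of MX1 was below the day 3 value of 1595. IFI35 had 122, 100, 84 and 70 against 219, 168, 245 and 202 (offset 1.04 ± 0.23, adjusted p = 0.0564). The regulator IRF7 had 82, 64, 42 and 29 against 159, 83, 101 and 66 (adjusted p = 0.077), and the sensor IFIH1 had 35 to 55 against 59 to 110 (adjusted p = 0.113). STAT2, which carries the interferon signal, had an offset of 0.26 ± 0.16 and did not pass. Slopes over days were negative for all 15 genes in 1595 and for 11 in 1727, against 277 and 155 of 360 genes; without scaling the numbers were 12 and 8, and with median scaling 14 and 13.

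MHC class I genes and chemokines shared this direction. All 7 class I presentation genes were above the negative controls and had positive offsets, 5 of them on all 4 days, with a median of 0.59. Of all 360 genes 223 had positive offsets and 118 were positive on all 4 days, with a median of 0.16. None passed limma and 4 had an unadjusted p under 0.05 (background 38.6%). Under median scaling 6 of 7 were positive. B2M, the light chain of class I molecules, had 8786, 8426, 9896 and 10329 in 1595 and 14743, 13328, 19147 and 19841 in 1727 (offset 0.71 ± 0.15, adjusted p = 0.0555). HLA-C had an offset of 0.59 ± 0.14 and HLA-B one of 0.79 ± 0.21; probes of HLA genes can share signal with close relatives. Proteasome subunits, which cut peptides for class I molecules, had positive offsets in 7 of 7 genes (median 0.43, 4 at an unadjusted p under 0.05, none passing), among them PSMB8 and PSMB9 with 0.54 ± 0.14 each.

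Chemokines above the negative controls numbered 10 of 30, and all 10 had positive offsets under each of 4 scalings, 8 on every day, with a median of 0.77. With housekeeping scaling 223 of all 360 genes had positive offsets, 118 on every day, with a median of 0.16. Under the other scalings the chemokine median was 0.67 to 1.03, against 0.05 to 0.42 for all genes. None passed limma with housekeeping scaling, and 8 had an unadjusted p under 0.05 (background 38.6%). Under the other scalings 3 to 6 passed, where 57 to 117 of all 594 genes did. CCL2, which attracts monocytes, had 22, 41, 43 and 37 in 1595 and 125, 85, 407 and 401 in 1727, without overlap (offset 2.41 ± 0.44, adjusted p = 0.0508). IL8, the neutrophil attractant CXCL8, had 1355, 1299, 1012 and 881 against 10431, 2238, 4012 and 3538 (offset 1.81 ± 0.35, adjusted p = 0.0536). Its gap was widest on day 3 and narrowest on day 4. CXCL1, another neutrophil attractant, had an offset of 0.81 ± 0.15 (adjusted p = 0.0509). CCL2 was thus at higher values in the culture where its receptor CCR2 was lower.

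**Figure D3:**
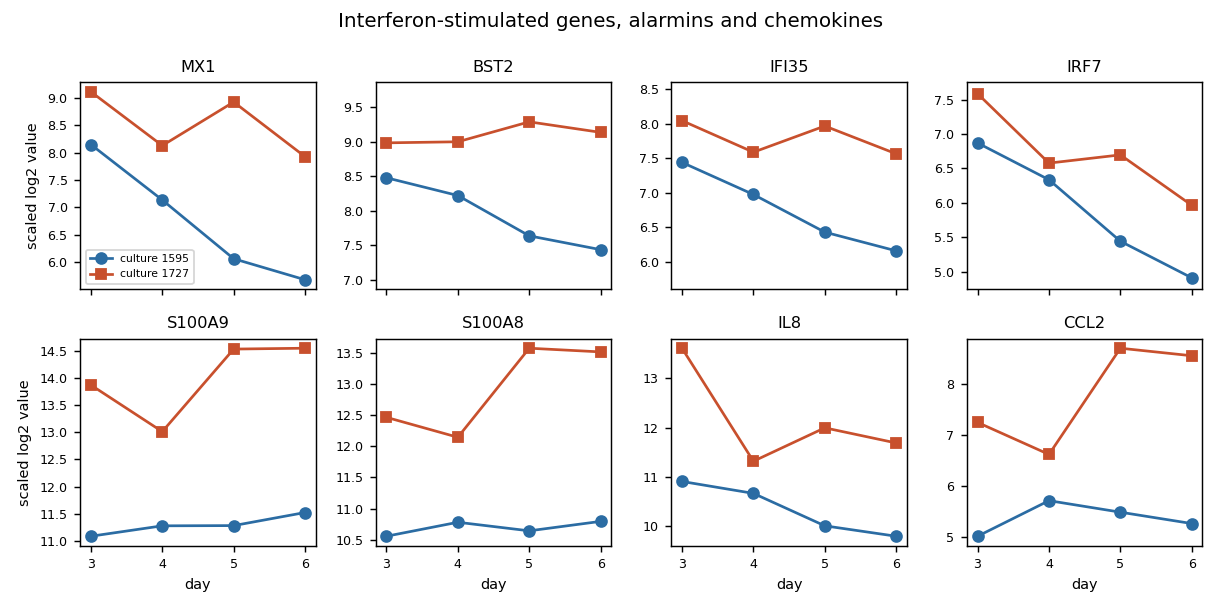
Scaled log2 value by day in culture 1595 (circles) and culture 1727 (squares) for 4 interferon-stimulated genes in the upper row and for S100A9, S100A8, IL8 and CCL2 in the lower row; the y axes differ between panels. The gap of MX1, BST2 and IFI35 was wider on days 5 and 6 than on days 3 and 4, and IL8 was highest on day 3 in 1727.

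**Figure D4:**
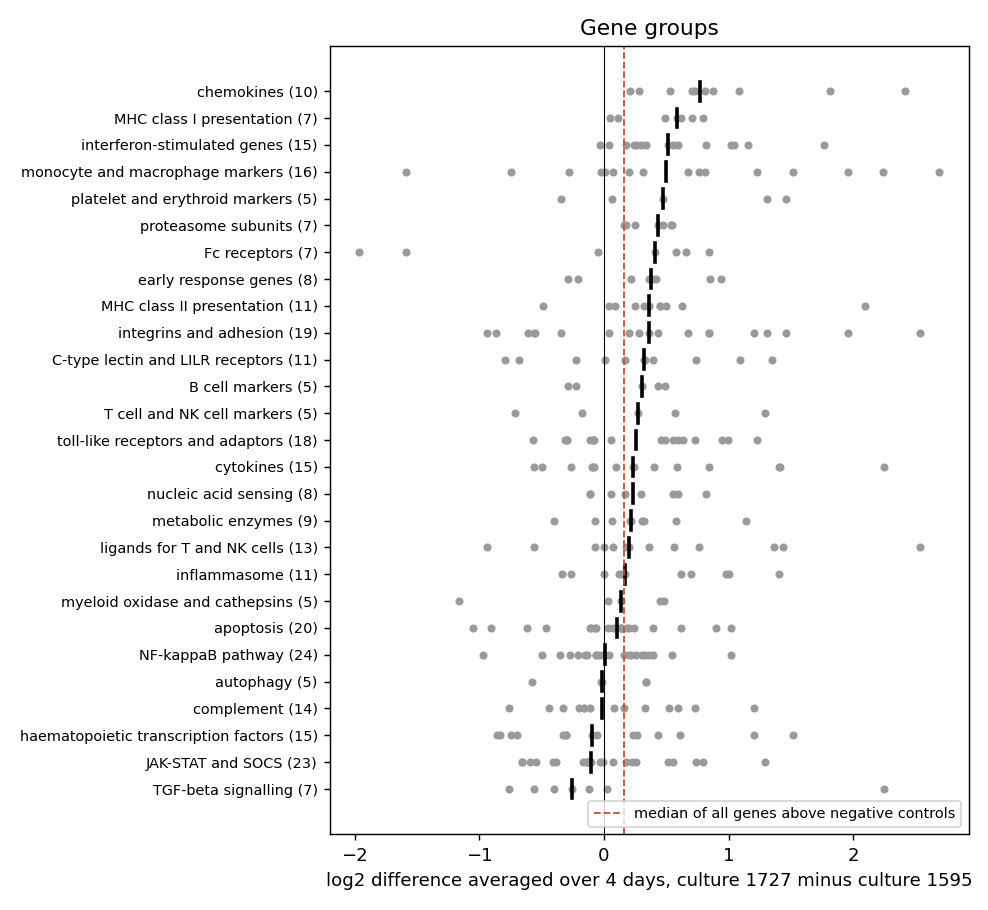
Offset of 1727 minus 1595 on the log2 scale for each gene above the negative controls (points), by gene list with the number of genes in brackets; black bars are list medians and the dashed line is the median of all 360 genes, 0.16. Chemokines (median 0.77) and MHC class I genes (0.59) lie right of the line, and TGF-beta signalling lies left of it at -0.26.

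Courses over days were compared next. By limma no gene had a difference of slopes that passed (smallest adjusted p = 0.358), and 58 of 594 had an unadjusted p under 0.05 (9.76%). Of the 32 such genes above the negative controls (8.89% of 360), all had a more positive slope in 1727. Median slopes over the 360 genes were -0.11 log2 per day in 1595 and 0.02 in 1727. An opposite course, defined as slopes of opposite sign of at least 0.1 log2 per day each and an overall change from day 3 to day 6 of the same sign, was shown by 44 genes with a positive slope in 1727 and a negative one in 1595 (12.2%) and by none the other way (0%). The direction depended on the scaling. With median scaling 12 genes had this course and 28 the opposite one, without scaling 30 and 3, and with positive control scaling 34 and 5. By the full definition 12 of the 44 genes kept this course with median scaling, 14 without scaling and 16 with positive control scaling. By sign alone, without the slope limit, 24 of the 44 kept opposite slopes under all 4 scalings. Among them were HLA-DRA, HLA-DPA1, HLA-DRB3, HLA-B, ITGAM, PTAFR, TLR8, CXCR4, NOD2 and TGFBI, while CR1 and CYBB were not. Some of these slopes were nearly flat. Without scaling those in 1595 were -0.03 for HLA-B, -0.04 for PTAFR and -0.02 for CXCR4. With median scaling the slope of HLA-DRB3 in 1727 was 0.03.

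MHC class II molecules present peptides to CD4 T cells. The list for class II presentation had 11 genes above the negative controls, of which 8 were HLA class II chains. The others included CD1D, which presents lipids. Of the 11, 3 were among these 44 genes (12.2% of all 360), HLA-DRA, HLA-DPA1 and HLA-DRB3. All 11 had negative slopes in 1595 and 1 in 1727. These numbers were 6 and 1 without scaling and 8 and 6 with median scaling. The median difference of slopes over the 11 genes was 0.26 log2 per day, against 0.12 for all 360 genes. HLA-DRB1 is shown as a class II promoter (GRCh38.p14, chr6:32589849-32590098, minus strand, 250 bases before the RefSeq start). Capitals mark CCAAT on either strand, which was in 33.4% of 22114 promoters and in 5 of 5 promoters in the table, for the 8 HLA class II chains above the negative controls.
HLA-DRB1: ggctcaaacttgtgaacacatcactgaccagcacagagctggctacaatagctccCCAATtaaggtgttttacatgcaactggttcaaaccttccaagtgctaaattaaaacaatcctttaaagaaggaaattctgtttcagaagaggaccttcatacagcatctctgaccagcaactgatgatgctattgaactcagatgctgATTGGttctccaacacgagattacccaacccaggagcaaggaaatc

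HLA-DRA, the nearly invariant alpha chain of HLA-DR, had deposited values of 169, 167, 113 and 95 in 1595 and 90, 135, 160 and 241 in 1727. The cultures crossed between days 4 and 5, and the mean offset was 0.04 ± 0.42. Slopes were -0.48 and 0.32 log2 per day, a difference of 0.80 ± 0.11 (limma unadjusted p = 0.00171, adjusted p = 0.358). HLA-DPA1 had 58, 52, 53 and 37 against 45, 71, 85 and 108, crossing between days 3 and 4 (slope difference 0.64 ± 0.11, unadjusted p = 0.00533). HLA-DRB3 had 40, 40, 24 and 23 against 45, 30, 59 and 63, and HLA-DRB1, closer to the negative controls, 18, 12, 12 and 10 against 17, 13, 20 and 24. CD74, the invariant chain that escorts class II molecules, had a smaller slope difference of 0.26 ± 0.13. CIITA, the master regulator of class II genes, was at 0 to 4 in all 8 samples and could not be read.

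Receptors of myeloid cells and other genes were also among the 44 with opposite courses. PTAFR, the receptor for platelet-activating factor, had 77, 113, 78 and 80 in 1595 and 89, 156, 329 and 385 in 1727, so that the cultures were alike on day 3 and 2.14 log2 apart on day 6 (slope difference 0.82 ± 0.19, unadjusted p = 0.012). ITGAM, the CD11b chain of complement receptor 3, had 22, 14, 18 and 10 against 18, 23, 36 and 37 (0.70 ± 0.12, unadjusted p = 0.00463). Both series of ITGAM begin near the negative controls, which limits their precision. TLR8, an endosomal sensor of single-stranded RNA, had 22, 31, 25 and 17 against 21, 40, 49 and 48 (0.56 ± 0.11). CYBB, the catalytic subunit of the phagocyte NADPH oxidase, had 792, 823, 801 and 874 against 514, 1004, 1244 and 1433 (0.49 ± 0.16), and its small negative slope in 1595 arose after scaling. CFP, which encodes properdin, a stabiliser of the alternative complement pathway, was weak in both cultures, with 20, 12, 13 and 7 against 6, 14, 15 and 15. For 4 of the 44 genes, IL22RA2, CAMP, LILRA5 and CISH, the mean in 1595 was not above the negative controls, so that they were kept through 1727 alone and their course in 1595 could not be read. IL22RA2 had 4, 10, 5 and 5 against 4, 13, 30 and 29, and CAMP, which encodes the antimicrobial peptide cathelicidin, 4, 8, 5 and 3 against 16, 13, 40 and 57. Without such genes 40 opposite courses were left among 341 genes above the negative controls in both cultures, a filter added after the data were seen.

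**Figure D5:**
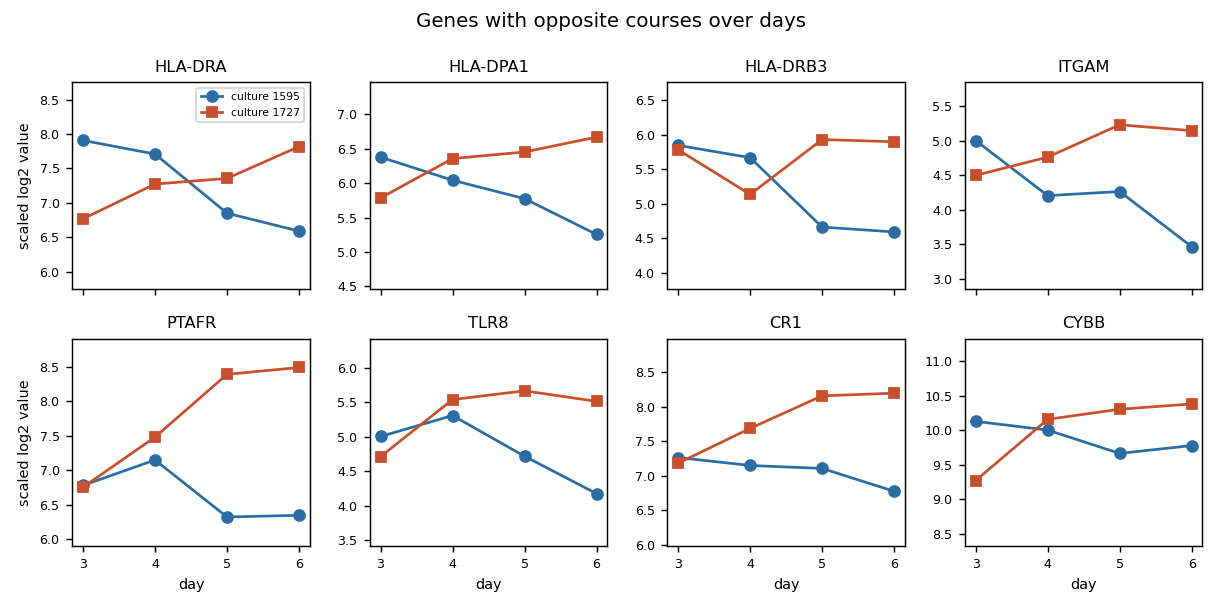
Scaled log2 value by day in culture 1595 (circles) and culture 1727 (squares) for 8 of the 44 genes with opposite courses; the y axes differ between panels. HLA-DRA, HLA-DPA1 and ITGAM cross between the cultures, while CR1 and PTAFR start at nearly equal values on day 3.

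Of the 44 genes with opposite courses, 23 were higher in 1595 on day 3 and higher in 1727 on day 6. The offset test was passed by 4 of them, TGFBI, LILRA2, CD276 and PECAM1, a share of 9.09% that is close to the 8.61% of all 360 genes.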

How the data were processed

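Expression was measured with an nCounter immunology panel in 16 OCI-AML2 samples, per the labels' protocols, which also name an RNA kit and a cDNA step. The authors deposited whole numbers, treated here as a score because only the name of a deposited table says that unwanted variation was removed; 594 genes were identical in both tables. They were taken as linear levels. Each was divided by the geometric mean of 15 housekeeping genes, centred over all samples, and log2(value + 1) was taken. Totals were 313016 to 436459 per SUV3 sample, and the 8 negative control probes averaged 6.38 (SD 2.63), which limits precision for weak genes. Samples were grouped by culture and paired by the day in their labels. Offsets (day as a block, 3 residual degrees of freedom) and slope differences were tested with limma 3.58.1 in R 4.3.3 over 594 genes, Benjamini-Hochberg adjusted, threshold 0.05; the fits were tested on simulated data. Separation by size and opposite courses are descriptions without a test. Alternatives changed the scaling, pseudocount, background, filter, samples in the fit, block and days. Promoters came from RefSeq (GRCh38.p14), matched by symbol. The members, 28 gene lists and tests were chosen with earlier results of these data known. The naming rule took, for either culture, the 12 largest offsets that passed, up to 8 opposite courses, up to 4 members of each list (or the 2 with the smallest p) and 26 genes considered in any case; ETS1, IL6ST, NFKB2, PLAUR, CD83, ITGB1 and the genes just outside the limits, HLA-DRB3, TLR8, CR1, CYBB, CISH and CXCR4 were named after their values were seen. Some genes that this rule picks are not reported here.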

Additional observations from a re-analysis of the deposited data

Results flagged for a closer look

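In 13 of 150 sets of 4 days, made of 1 gene in 1 culture, a single day stood apart from the other 3 by Dixon's criterion at 95%; chance alone gives about 1 in 20. Values are scaled log2. In culture 1595 day 3 stood apart for BCL2 (8.91), IKBKE (8.67), CCND3 (10.1), PSMB8 (11.39) and ATG12 (7.36), the first 3 of them low and the others high. Also in 1595, PSMB9 was low on day 5 (7.59), ARG2 low on day 6 (2.59) and IL22RA2 high on day 4 (3.75). In culture 1727 day 4 was low for CD1D (7.29) and PSMB8 (11.53), day 3 was high for ATG12 (6.88) and low for CFP (3.04), and day 5 was high for PAX5 (4.48). ARG2, IL22RA2, CFP and PAX5 were close to the negative controls. CD1D kept its 1727 values above all 1595 values on this day too.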

How the results depend on the processing

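The 31 offsets became 85 without scaling, 57 with median scaling, 117 with positive control scaling and 89 with a pseudocount of 8. Over only the genes above the negative controls there were 99, where fewer genes were tested and the fit was also made anew. There 158 genes had an unadjusted limma p under 0.05, against 139 of the same 360 in the main fit. With all 16 samples in 1 fit there were 129. With no replicate block there were 79, where 29 of the 31 genes passed again. Subtracting the negative controls gave 34, with 23 of the 31. Of the 31 genes, 30 passed again with median scaling, 27 with positive control scaling and all with the other settings that kept every day. Leaving out 1 day gave 0 to 3. In each of these settings all 31 genes kept their sign, which says little. With 1 day left out it was fixed in advance, since each gene had 1 sign on all 4 days. The smallest of the 31 offsets was 0.74 log2 in size, and scaling moved the median offset only between 0.05 and 0.42. The cause of the shifts in the number of calls was not tested. The 10 genes separated by 2-fold on every day became 16 without scaling, 21 with positive control scaling and 36 with a 1.5-fold limit, and leaving out 1 day gave 11 to 23, where fewer days had to meet the limit. The 44 opposite courses became 11 with a slope limit of 0.2, and leaving out 1 day gave 37 to 71; over genes above the negative controls in each culture, a filter chosen after seeing the data, 40 were left, and all 10 separated genes. No alternative gave a slope difference that passed. Among genes named by the rule, offsets near 0 changed sign in 13 cases: the offset of CD48 to 0.111 without scaling, 0.250 with positive control scaling and 0.0423 with negative controls subtracted, and those of HLA-DRA to -0.0673 and CSF3R to -0.101 with median scaling. With 1 day left out, offsets ranged from -0.295 to 0.143 for CD48, from -0.356 to 0.431 for HLA-DRA, from -0.0994 to 0.164 for CSF3R and from -0.71 to 0.162 for CSF1R. Of their other offsets 562 kept direction and side of the threshold, 126 no longer passed and 139 newly passed. Means near 11.6, the limit of the negative controls, carry little information, and 2 cultures do not allow an estimate of the spread between cultures.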

Other observations

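Other lists held genes of both directions. For comparison, 8.61% of all 360 genes above the negative controls passed. NF-kappaB pathway genes had a median offset of 0.01 log2 over 24 genes above the negative controls, with NFKB2 higher in 1727 and IKBKE higher in 1595 as the genes that passed. Complement genes had a median of -0.02 over 14 genes; none passed limma and 5 had an unadjusted p under 0.05 (background 38.6%). CD59, which blocks the membrane attack complex, had 463 to 548 in 1595 and 567 to 897 in 1727 (offset 0.52 ± 0.16, limma adjusted p = 0.113). JAK-STAT and SOCS genes had a median of -0.10 over 23 genes, of which IL6ST alone passed. For TGF-beta signalling 2 of 7 genes had positive offsets, against 223 of 360 (median -0.26, against 0.16 for all genes). TGFBI, a target of that pathway, was the gene that passed.

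Inflammasome genes had positive offsets in 8 of 11 genes, against 223 of 360, and a median of 0.17, close to the 0.16 of all genes; none passed limma and 5 had an unadjusted p under 0.05. IL1B, the cytokine that the inflammasome matures, had deposited values of 21, 60, 51 and 39 in 1595 and 66, 90, 179 and 170 in 1727 (offset 1.41 ± 0.29, limma adjusted p = 0.0555), and CASP1, the protease that does so, had 413 to 539 and 617 to 899 (0.62 ± 0.14, adjusted p = 0.0598). EGR1, an immediate early transcription factor, had 32, 19, 24 and 16 against 110, 39, 35 and 31, highest on day 3 in both cultures. CCND3, the cyclin D3 of the cell cycle, was at 777 to 1414 in 1595 and 604 to 1065 in 1727 (offset -0.61 ± 0.12, adjusted p = 0.0555), and the autophagy gene ATG12 had -0.58 ± 0.12 (adjusted p = 0.0555). The adapter LCP2, with 518 to 710 in 1595 and 767 to 1219 in 1727, made up much of the summed T cell and NK cell markers in both cultures.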
